A study of Mus musculus with 30 samples.

Results

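Cells that had been differentiated for 96 h before the OSKM factors were switched on were compared with cells that had been differentiated for 48 h. Both were mouse secondary iPSCs, an induced pluripotent line that carries doxycycline (dox)-inducible transgenes for OCT4, SOX2, KLF4 and MYC (OSKM), a GFP reporter in the Nanog locus, which leaves the line heterozygous for Nanog, and a constitutive nuclear RFP. They were taken out of 2i/LIF, a medium with a pair of kinase inhibitors and the cytokine LIF that holds cells in naive pluripotency, for 48 or 96 h, and were then re-seeded for 48 h in serum/LIF with 2 µg/ml dox. These conditions are named 48 h +dox and 96 h +dox. They were chosen by the labels for hours of differentiation and dox, and hold 4 of the 30 RNA-seq samples, with 2 replicates in each. The other samples used here as comparisons are the same cells re-seeded without dox (48 h –dox and 96 h –dox), undifferentiated cells re-seeded with dox (0 h +dox), and cells of the withdrawal time course at 0, 48 and 96 h that were not re-seeded. Cells re-seeded after 0 and 24 h with and without dox enter only in the plot of 16 genes, apart from 0 h +dox. All of them carry the transgenes.

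The line is a single iPSC line that was kept on CF1 mouse embryonic fibroblast (MEF) feeders, and no tissue or animal was sampled. Feeders are named in the methods for the colony assay, and whether the cells for RNA-seq were re-seeded on them is not stated. The table holds 1 FPKM value (fragments mapped to a gene, scaled by transcript length and library size) per gene and condition, in which the authors combined both replicates. There is therefore no spread between replicates and no test for any value below, and a gene is called higher or lower only when its values are at least 2-fold apart. Genes were compared where at least one of these conditions reached 1 FPKM, which held for 12736 of 22477. At this limit, Accsl, Hdac9 and Cpn1 lay just inside, with 1.0002, 1.0003 and 1.0007 FPKM in 48 h +dox. Mroh4, at 0.9987 FPKM in 48 h +dox, and Fbxl22 and D1Pas1, with a higher value of 0.9997 FPKM, lay just outside. The column sums were 832607 FPKM for 48 h +dox and 764104 FPKM for 96 h +dox, and 4810 and 5090 genes were listed at 0. In what follows pairs of values give 48 h +dox first and 96 h +dox second, and pairs of values without dox or in the time course also give 48 h first.

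When pluripotent cells leave 2i/LIF they first lose the naive network of transcription factors around NANOG, ESRRB and KLF4. They then pass through a formative state that still expresses OCT4 (Pou5f1), before they take on features of the early germ layers. OSKM expression can drive differentiated cells back to pluripotency, a process called reprogramming. The question posed by this pair of conditions is how the state reached after the same dox treatment differs with the length of the preceding differentiation.

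In 96 h +dox 1319 genes were at least 2-fold higher than in 48 h +dox, 10.4% of the genes compared, and 1470 were at least 2-fold lower, 11.5%. In either direction this is 21.9% of the genes. The lower genes included 27 of the 34 measured genes of naive and general pluripotency and 11 of the 12 measured germline genes. The higher genes included 9 of 12 trophoblast genes, 12 of 20 targets and components of the TGF-beta, BMP and Wnt pathways, 7 of 11 genes of extraembryonic endoderm and 8 of 24 epithelial genes. Other lists had larger higher shares than the epithelial one. They were 5 of 8 primitive streak, 8 of 16 mesenchymal, 5 of 12 epidermal, 6 of 15 matrix and 7 of 19 imprinted genes, with 2, 5, 1, 1 and 5 lower. None of the 16 reference genes of every cell was 2-fold apart, and their median log2 ratio of 96 to 48 h was -0.05, against 0.01 over all genes compared. The difference reached 4-fold in 430 higher and 673 lower genes and 16-fold in 88 and 154. In 467 of the higher and 716 of the lower genes the lower value was under 1 FPKM, where a ratio is the least precise, and 25 and 49 of them were listed at 0 there. In these bulk samples fewer cells that express a gene and less RNA of it per cell cannot be told apart.

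**Figure D1:**
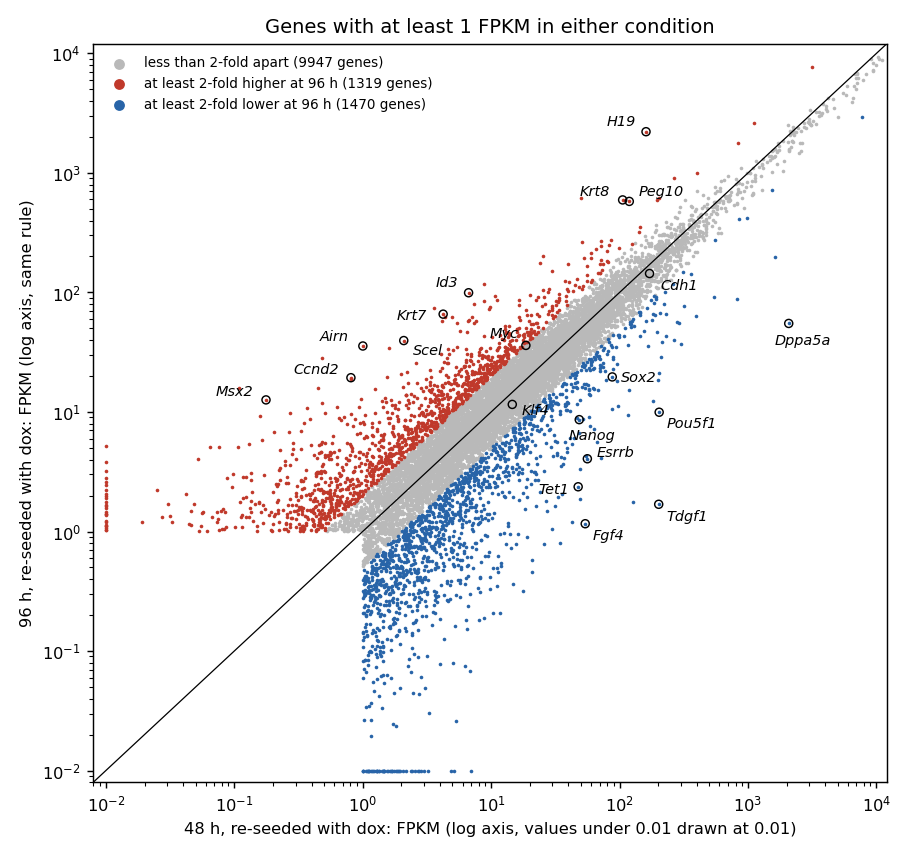
FPKM of the 12736 genes compared in 48 h +dox (x axis) and 96 h +dox (y axis), both on log axes with values under 0.01 drawn at 0.01, 1 point per gene and the line of equal values. The 1319 red genes are at least 2-fold higher and the 1470 blue genes at least 2-fold lower in 96 h +dox, with Tdgf1, Fgf4 and Pou5f1 far below the line and Airn, Id3 and H19 far above it.

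The factors encoded by the transgenes did not lie at the same level in both conditions. Their values add transcripts of the endogenous genes to those of the transgenes wherever both map to the gene. Pou5f1, on chromosome 17 of mm10 from 35506018 to 35510772, stood at 204 FPKM after 48 h and 9.95 FPKM after 96 h, which is 20.4-fold lower. Sox2, on chromosome 3 from 34650405 to 34652461, stood at 87.8 and 19.6 FPKM, 4.47-fold lower in 96 h +dox. Neither Klf4 nor Myc was 2-fold apart. Klf4, on chromosome 4 from 55527143 to 55532466, was at 14.6 and 11.6 FPKM, and Myc, on chromosome 15 from 61985391 to 61990374, was at 18.7 and 36.1 FPKM. In 0 h +dox the values were 425 FPKM for Pou5f1, 122 FPKM for Sox2, 66.7 FPKM for Klf4 and 18.7 FPKM for Myc. Klf4 was thus more than 2-fold below its 0 h value after both 48 and 96 h, and so was Pou5f1, while Sox2 was within 2-fold of its 0 h value after 48 h and Myc after both. The 4 genes summed to 325 and 77.2 FPKM with dox, and to 157 and 88.0 FPKM without. Their sum was thus above that of –dox cells after 48 h but not after 96 h. At each timepoint 3 of the 4 genes were above their –dox value.

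Among the genes of naive and general pluripotency the median log2 ratio of 96 to 48 h was -2.70. Only Lin28b, an RNA-binding inhibitor of let-7 processing, was higher at 96 h, with 5.46 and 14.4 FPKM. The 6 remaining genes were less than 2-fold apart, namely Eras, Lin28a, Sall4, Tfcp2l1, Trim28 and Zfp281. At 48 h +dox 19 of the 34 genes were within 2-fold of 0 h +dox and at 96 h +dox 4 were. Over all genes compared these shares were 76.7% and 66.5%.

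Tdgf1, the NODAL co-receptor Cripto, had the lowest ratio of all genes that reached 1 FPKM in both conditions and 10 FPKM in the higher one. It lies on chromosome 9 from 110939603 to 110946158 and was at 202 FPKM after 48 h and 1.69 FPKM after 96 h, a log2 ratio of -6.90. Its value in 0 h +dox was 311 FPKM. Fgf4, the autocrine FGF ligand of pluripotent cells and a classic joint target of OCT4 and SOX2, was at 54.0 and 1.16 FPKM, 46.5-fold lower at 96 h. Dppa5a, an RNA-binding protein of pluripotent cells, was at 2078 and 55.1 FPKM, 37.7-fold lower.

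The core naive factors were lower by smaller ratios. Nanog was at 48.6 FPKM after 48 h and 8.63 FPKM after 96 h, 5.63-fold lower. The orphan receptor Esrrb was at 56.2 and 4.06 FPKM, 13.8-fold lower. Zfp42 (Rex1), a widely used marker of the naive state, was at 62.9 and 7.26 FPKM, 8.67-fold lower. Klf2 was at 27.0 and 1.80 FPKM, 15.0-fold lower, and Klf5, at 59.2 FPKM after 48 h, was 4.24-fold lower. Tfcp2l1, a LIF-responsive factor of the same network, was at 31.5 and 22.7 FPKM and so remained within 2-fold, while in 96 h –dox it was at 4.11 FPKM. The 8 markers of pluripotent cells (Nanog, Esrrb, Zfp42, Pou5f1, Sox2, Dppa5a, Tdgf1 and Utf1) summed to 3287 and 198 FPKM, against 6856 FPKM in 0 h +dox, and all 8 were above 1 FPKM in both conditions.

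The proximal promoters of Nanog, Zfp42 and Tdgf1 are shown because these pluripotency genes were among those that differed, and because OCT4 and KLF4 belong to families with known short motifs. Each is the RefSeq window on GRCm38.p6 (the assembly also called mm10) from 250 bases before to 50 after the transcription start, on the strand of the gene. Capitals mark ATGCAAA, the core of the octamer bound by OCT4, and GGGCGG, the GC box bound by Sp and Krüppel-like factors, each on either strand. These motifs do not overlap in the windows shown. ATGCAAA stands in a window of 5.24% and GGGCGG in a window of 38.2% of the 27025 genes with a window. The first of the 2 windows of Nanog, chr6:122707239-122707538 on the plus strand, holds 1 octamer core, which begins 75 bases before the start.
Nanog: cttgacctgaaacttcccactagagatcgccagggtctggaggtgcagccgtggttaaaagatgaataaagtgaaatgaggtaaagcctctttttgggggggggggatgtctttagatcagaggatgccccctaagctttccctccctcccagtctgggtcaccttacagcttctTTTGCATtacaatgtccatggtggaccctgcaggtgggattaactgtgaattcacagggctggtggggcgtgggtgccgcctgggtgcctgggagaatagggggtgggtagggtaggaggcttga
The window of Zfp42, chr8:43306960-43307259 on the minus strand, holds 1 octamer core and 2 GC boxes.
Zfp42: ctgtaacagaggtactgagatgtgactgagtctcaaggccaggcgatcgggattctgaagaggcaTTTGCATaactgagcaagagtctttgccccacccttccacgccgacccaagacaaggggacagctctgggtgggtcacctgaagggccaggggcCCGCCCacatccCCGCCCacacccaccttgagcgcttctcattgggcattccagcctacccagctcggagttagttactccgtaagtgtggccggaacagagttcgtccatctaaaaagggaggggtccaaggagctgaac
The window of Tdgf1, chr9:110946109-110946408 on the minus strand, holds no octamer core and 1 GC box.
Tdgf1: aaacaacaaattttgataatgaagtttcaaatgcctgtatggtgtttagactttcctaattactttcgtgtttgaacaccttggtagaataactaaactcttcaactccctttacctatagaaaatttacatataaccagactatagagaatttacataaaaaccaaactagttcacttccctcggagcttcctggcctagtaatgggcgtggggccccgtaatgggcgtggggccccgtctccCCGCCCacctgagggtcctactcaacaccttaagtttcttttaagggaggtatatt
The window of Krt7, an epithelial keratin gene that was 15.6-fold higher at 96 h, is shown beside them. It lies at chr15:101412153-101412452 on the plus strand and holds 4 GC boxes and no octamer core.
Krt7: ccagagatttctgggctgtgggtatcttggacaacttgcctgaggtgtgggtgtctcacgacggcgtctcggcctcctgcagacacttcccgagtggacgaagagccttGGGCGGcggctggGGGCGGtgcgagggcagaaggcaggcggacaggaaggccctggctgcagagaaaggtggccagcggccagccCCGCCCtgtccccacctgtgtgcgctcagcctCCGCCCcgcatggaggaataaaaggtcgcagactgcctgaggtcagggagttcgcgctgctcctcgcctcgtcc
A match is a description of these letters and no evidence of binding.

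Formative and primed genes lay lower at 96 h as well. Of 18 measured, 13 were lower and 2 higher, with a median log2 ratio of -1.68. The FGF/ERK-responsive ETS factors Etv4 and Etv5 were at 42.3 and 118 FPKM in 48 h +dox and at 1.20 and 15.3 FPKM in 96 h +dox. Dnmt3l, a cofactor of de novo DNA methylation, was at 66.4 and 5.57 FPKM. The NODAL signalling genes Nodal, Lefty1 and Lefty2 were at 23.2, 32.4 and 54.5 FPKM at 48 h and at 2.69, 4.54 and 4.29 FPKM at 96 h, between 7.13- and 12.7-fold lower. Otx2, a driver of the formative state, differed little, with 27.7 and 24.5 FPKM. The higher genes of this list were Cdh2, at 1.26 and 3.50 FPKM, and Lef1, at 0.448 and 1.04 FPKM. At both 48 and 96 h +dox 7 of the 18 genes were within 2-fold of 0 h +dox.

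Germline genes, many of which are silenced by DNA methylation in somatic cells, were lower in 11 of 12 cases, with a median log2 ratio of -3.11 (-1.68 with 1 FPKM added to all values), and higher in none. The meiotic chromosome axis gene Sycp3 was at 31.6 FPKM after 48 h and 1.63 FPKM after 96 h, 19.3-fold lower. The piRNA pathway gene Mael was at 10.3 and 0.492 FPKM, and the helicase gene Ddx4 was at 9.48 and 1.25 FPKM. Tdrd12, a further piRNA pathway gene that is not in the list but among the 12 largest differences, was at 29.6 and 1.05 FPKM, 28.2-fold lower. Only Tdrkh was less than 2-fold apart.

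Regulators of DNA methylation and Polycomb showed a mixed picture, with 9 of 22 lower and 4 higher. Tet1, a dioxygenase that oxidizes 5-methylcytosine, was at 47.6 FPKM after 48 h and 2.37 FPKM after 96 h, 20.1-fold lower. Its paralog Tet2 was at 5.20 and 1.41 FPKM. Tet3 lay the other way, at 2.14 and 7.45 FPKM, 3.48-fold higher at 96 h. The maintenance enzyme Dnmt1 was at 39.6 and 46.1 FPKM and its partner Uhrf1 at 62.8 and 59.8 FPKM. Among the Polycomb genes Mtf2, Jarid2, Eed and Cbx7 were lower by 2.21- to 3.21-fold, whereas Ezh2, the main H3K27 methyltransferase, was at 67.0 and 54.9 FPKM. Bmi1 and Cbx8, which were also higher, did not exceed 6.11 FPKM in either condition.

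The 11 measured genes of LIF and Stat3 signalling were lower in 6 cases and higher in 1. Lifr, the LIF receptor subunit, was at 8.63 FPKM after 48 h and 1.67 FPKM after 96 h, 5.16-fold lower. The Stat3 targets Socs3, Pim1 and Bcl3 were at 43.0, 182 and 23.1 FPKM at 48 h and at 20.3, 66.2 and 11.4 FPKM at 96 h. Stat3 itself was at 26.2 and 20.6 FPKM and the co-receptor gene Il6st at 18.8 and 13.9 FPKM. Jak2, at 5.96 FPKM after 48 h, was the higher gene at 2.01-fold. Both conditions were in LIF. The median log2 ratio of this list was -1.02 with dox and 0.49 without, and without dox Lifr stood in the reverse order, at 1.98 and 4.33 FPKM.

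**Figure D2:**
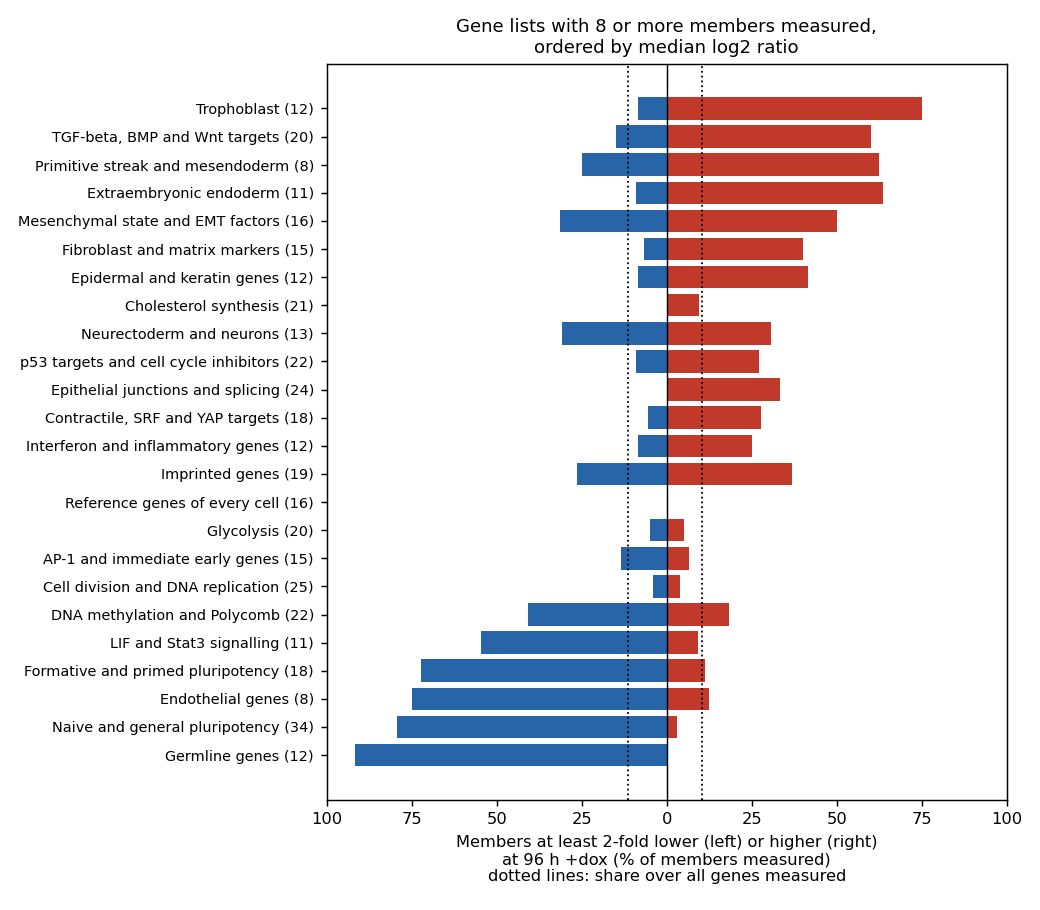
Share of the measured members of each gene list with 8 or more members measured that was at least 2-fold higher (red, right) or lower (blue, left) in 96 h +dox than in 48 h +dox, in percent, with the number of members measured in brackets and the lists ordered by median log2 ratio. Dotted lines give the shares over all genes compared, 10.4% higher and 11.5% lower. Lists that exceed the line on the left include the pluripotency, germline, endothelial and LIF and Stat3 lists. Those on the right include the trophoblast, extraembryonic endoderm and TGF-beta, BMP and Wnt lists. The primitive streak and mesenchymal lists exceed both lines.

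At the other end, the trophoblast list had the highest median log2 ratio of the lists. The TGF-beta, BMP and Wnt list (1.60), the primitive streak list (1.53) and the extraembryonic endoderm list (1.20) came next. The trophoblast list had 9 of 12 genes higher and 1 lower, with a median log2 ratio of 2.49 (1.55 with 1 FPKM added). Krt7 and Krt8, simple-epithelial keratins that are also trophoblast markers, were at 4.23 and 106 FPKM in 48 h +dox and at 65.9 and 595 FPKM in 96 h +dox. Gata2 and Gata3, GATA factors of the trophectoderm, were at 0.929 and 1.71 FPKM at 48 h and at 10.9 and 7.34 FPKM at 96 h. The placental homeobox gene Esx1 was at 1.67 and 12.7 FPKM. Plac1, a placental membrane protein gene, was listed at 0 at 48 h and at 5.23 FPKM at 96 h. The lower gene was Eomes, at 1.05 and 0.0341 FPKM, and Tfap2c was at 15.9 and 16.6 FPKM. All 12 genes had a lower value in 96 h +dox than in 96 h –dox, where Krt7 was at 158 FPKM, Gata2 at 49.7 FPKM and Plac1 at 103 FPKM. The 4 trophoblast markers Cdx2, Elf5, Tpbpa and Plac1 summed to 0.257 and 6.90 FPKM, and to 109 FPKM in 96 h –dox. Plac1 gave 5.23 FPKM of the 96 h +dox sum, and 2 of the 4 reached 1 FPKM there.

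The extraembryonic endoderm list had 7 of 11 genes higher and 1 lower, with a median log2 ratio of 1.20. The largest values among them were those of basement membrane genes. Col4a1 and Col4a2, the chains of collagen IV, were at 9.81 and 7.40 FPKM in 48 h +dox and at 74.9 and 80.8 FPKM in 96 h +dox, 7.64- and 10.9-fold higher. Lama1 was at 7.92 and 16.2 FPKM. The lineage's transcription factors stayed low, with Gata6 at 0.557 and 2.22 FPKM, Sox17 at 0.435 and 1.01 FPKM and Gata4 at 1.37 and 1.02 FPKM. The defining markers Afp and Ttr were listed at 0 in both conditions. The lower gene was Amn, at 1.29 and 0.388 FPKM.

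Of the 20 genes of the TGF-beta, BMP and Wnt list 12 were higher and 3 lower, with a median log2 ratio of 1.60 (0.92 with 1 FPKM added). The Id genes, direct BMP/SMAD targets that encode inhibitors of bHLH factors, were ordered by ratio as Id3, Id1 and Id2. Id3, on chromosome 4 from 136143497 to 136145755, was at 6.68 and 99.5 FPKM, 14.9-fold higher at 96 h. Id1 was at 86.1 and 273 FPKM and Id2 at 73.2 and 153 FPKM. Msx2, a homeobox target of BMP, was at 0.177 and 12.6 FPKM, and the inhibitory SMAD gene Smad6 was at 0.960 and 8.05 FPKM. Bmp4 itself, counted in the primitive streak list, was at 2.05 and 16.2 FPKM, 7.91-fold higher. For the Wnt feedback gene Axin2 the values were 0.683 and 8.51 FPKM, and for the Wnt antagonist Dkk1 0.0642 and 5.10 FPKM. Smad7, an inhibitory SMAD induced by TGF-beta, lay the other way with 21.4 and 7.62 FPKM. The other lower genes were Tcf7, at 28.3 and 13.9 FPKM, and Inhba, at 1.89 and 0.854 FPKM.

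Of 24 epithelial genes 8 were higher, 4 of them keratins and the others including the junction genes Dsp, Cldn3 and Marveld2. Cdh1 (E-cadherin), less than 2-fold apart, was at 171 and 144 FPKM and Epcam at 215 and 209.9 FPKM. The epithelial splicing regulator Esrp1 was at 39.0 and 42.9 FPKM. Krt18 was at 264 and 901 FPKM and Krt19 at 29.6 and 150.3 FPKM, 3.42- and 5.07-fold higher, beside the Krt7 and Krt8 values above. The desmosomal linker Dsp was at 16.5 and 79.0 FPKM and the tight-junction gene Cldn3 at 71.9 and 187 FPKM. No gene of this list was lower, and Marveld2 and Prss8 complete the 8 higher ones, with 13.3 and 85.1 FPKM at 96 h. Among epidermal genes Anxa8 was at 7.05 and 62.7 FPKM, while it did not exceed 1.93 FPKM in either –dox condition. The keratinocyte genes Krtdap and Krt17 were at 99.0 and 13.6 FPKM at 48 h and at 137 and 14.4 FPKM at 96 h, all less than 2-fold apart.

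Mesenchymal genes went in both directions, with 8 of 16 higher and 5 lower. Vim (vimentin) was at 25.5 and 105 FPKM, 4.12-fold higher at 96 h. The repressors of E-cadherin Snai1, Snai2, Zeb1 and Zeb2 were all called higher but did not exceed 6.16 FPKM. Thy1 was at 8.20 and 0.312 FPKM, S100a4 at 11.4 and 2.07 FPKM, and Fn1 (fibronectin) at 145 and 65.4 FPKM. Twist1 and Eng were the other lower genes. Matrix genes that are also fibroblast markers were higher in 6 of 15 cases, with Serpinh1, a collagen chaperone, at 71.6 and 245 FPKM and Col1a2 at 1.49 and 13.2 FPKM. The 9 fibroblast markers summed to 15.4 FPKM after 48 h and 22.7 FPKM after 96 h, against 790.3 FPKM in the 0 h timepoint of the time course and 143 FPKM in 96 h –dox, and their part in the differences was not tested. Endothelial genes were lower in 6 of 8 cases. Pecam1, which pluripotent cells also express, was at 11.3 and 0.462 FPKM and at 47.7 FPKM in 0 h +dox, and the endothelial marker Emcn was listed at 0 in both.

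Neural and mesendoderm genes went in both directions. Of 13 neurectoderm and neuronal genes 4 were higher and 4 lower. Pax6 was at 0.476 and 4.63 FPKM and Sox21 at 0.485 and 5.57 FPKM, whereas Nes (nestin) was at 16.7 and 5.99 FPKM and Neurod1 at 3.19 and 0.0907 FPKM. In the primitive streak list 5 of 8 genes were higher, of which Bmp4 alone exceeded 2.22 FPKM (the value of Gata6), and the lower members were Eomes and Mesp2. The 4 neuronal markers summed to 82.7 and 139 FPKM, of which Stmn2 gave 70.9 and 131 FPKM.

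Imprinted genes, which are expressed from 1 parental allele, included 7 of 19 higher and 5 lower. H19, a maternally expressed noncoding RNA on chromosome 7 from 142575529 to 142578143, was at 161 FPKM after 48 h and 2214 FPKM after 96 h, 13.8-fold higher. Its neighbour Igf2, on chromosome 7 from 142650766 to 142666816, was at 10.7 and 93.5 FPKM, 8.78-fold higher. Peg10, a paternally expressed retrotransposon-derived gene needed in the placenta, was at 119 and 578 FPKM and its neighbour Sgce at 38.9 and 106 FPKM. The noncoding RNAs of the Dlk1-Meg3 domain lay the other way. Meg3, Rian and Mirg were at 220.2, 357 and 57.6 FPKM at 48 h and at 80.4, 142 and 14.2 FPKM at 96 h. Grb10, an adaptor that inhibits insulin signalling, was at 22.5 and 1.63 FPKM, 13.9-fold lower.

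Airn had the largest ratio of the higher genes that reached 1 FPKM in both conditions and 10 FPKM in the higher one, at 1.00 and 35.7 FPKM, a log2 ratio of 5.15. Its 48 h value lay at the 1 FPKM limit. It is a noncoding RNA that starts within Igf2r on the opposite strand, on chromosome 17 from 12741311 to 12860136, while Igf2r runs from 12682406 to 12769664. Igf2r was at 15.6 and 3.34 FPKM, 4.68-fold lower. Whether the counting used strand is not stated in the sources used here, and without it reads from the part that both genes cover cannot be told apart.

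The remaining genes with the largest ratios are less tied to a lineage. Crabp2, an intracellular carrier of retinoic acid, was at 3.58 and 74.7 FPKM. Scel (sciellin), a precursor of the cornified envelope, was at 2.09 and 39.6 FPKM, and Igfbp6, an IGF2-binding protein gene, was at 1.61 and 34.5 FPKM. The homeobox genes Rhox6 and Rhox9 of the X-linked Rhox cluster were at 8.76 and 4.41 FPKM at 48 h and at 118 and 62.2 FPKM at 96 h. They are close relatives, and reads that they share may be split between them. Cda, a cytidine deaminase, and Prtg (protogenin) were 12.8- and 12.7-fold higher. Among the largest ratios downwards were also Ephx2, a soluble epoxide hydrolase, at 27.0 and 1.48 FPKM, Pla2g1b, a phospholipase, at 71.8 and 4.09 FPKM, and 2410007B07Rik at 127 and 1.75 FPKM.

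Genes of division and basic metabolism differed little. Of 25 genes of cell division and DNA replication 1 was higher and 1 lower, with a median log2 ratio of -0.28. The higher one was Ccnd2 (cyclin D2), at 0.809 and 19.4 FPKM, which was at 4.22 FPKM in 96 h –dox. Mcm3, at 186 and 92.9 FPKM, was the lower one and lay at the 2-fold limit. Mki67 was at 53.5 and 47.5 FPKM. Of the cell cycle inhibitors and p53 targets 6 of 22 were higher and 2 lower. Cdkn1a (p21) was at 55.7 and 139.5 FPKM and Cdkn1c (p57) at 4.26 and 13.1 FPKM. The p53 targets Mdm2 and Bax were less than 2-fold apart, at 78.4 and 177 FPKM at 48 h and at 58.0 and 124 FPKM at 96 h. In the glycolysis list the glucose transporter gene Slc2a1 was at 39.6 and 174 FPKM, Pdk1 was at 50.7 and 24.2 FPKM, and the other 18 genes were less than 2-fold apart. Of 21 cholesterol synthesis genes 2 were higher and none lower, with the sterol desaturase gene Sc5d at 7.06 and 17.4 FPKM.

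Contractile and YAP target genes were higher in 5 of 18 cases and lower in 1. Acta2 (smooth muscle actin) was at 60.2 and 193 FPKM and Tpm1 (tropomyosin) at 400.4 and 996 FPKM, while the YAP target Cyr61 was at 101 and 111 FPKM. The lower gene was Myl9, at 46.5 and 11.6 FPKM. Of 15 AP-1 and immediate early genes only Fosl2, at 2.40 and 14.1 FPKM, was higher and Egr1 and Fosl1 were lower. Among 12 interferon and inflammatory genes 3 chemokine genes, Ccl7, Cxcl1 and Cxcl12, were higher and none of them exceeded 3.45 FPKM. Bst2 (tetherin) was the lower gene, with 195 and 46.6 FPKM. Of the macrophage and blood markers only Cd68, a lysosomal protein that other cells also make, reached 1 FPKM, with 42.4 and 47.3 FPKM, and C1qa and Hbb-bs were listed at 0.

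**Figure D3:**
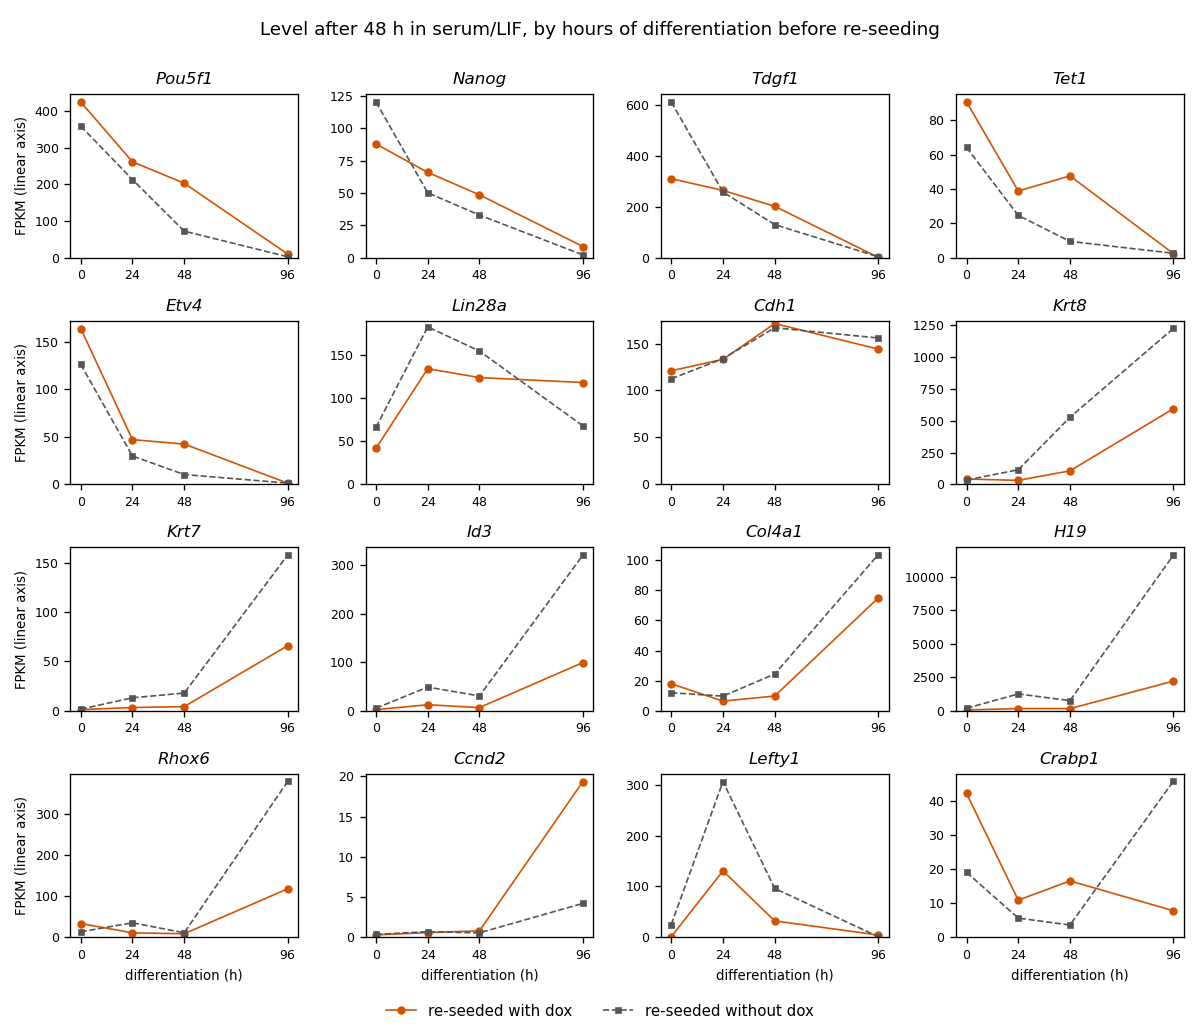
FPKM of 16 genes (linear axes that start at 0) against the hours of differentiation before 48 h in serum/LIF, with dox (orange circles) and without (grey squares), 1 combined value per point. Between 48 and 96 h with dox, Pou5f1, Nanog, Tdgf1, Tet1 and Etv4 are lower and Krt8, Krt7, Id3, Col4a1, H19, Rhox6 and Ccnd2 higher, while Crabp1 goes opposite ways with and without dox.

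The same timepoints without dox, and in the time course without re-seeding, come from other samples and can be set beside these values. Of the 1319 genes higher at 96 h with dox, 635 were also higher without dox and 21 were lower. Over all genes compared, 9.44% were higher and 9.26% lower without dox. In the time course 632 of the 1319 were higher and 37 lower, against 14% and 8.72% of all genes compared. Of the 1470 lower genes, 660 were also lower without dox and 53 were higher, and in the time course 518 were lower and 132 higher. Among the higher genes 349 had the same call in both other pairs and 401 in neither, and among the lower genes 271 and 563.

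For the higher genes the median log2 ratio was 1.58 with dox, 1.01 without and 1.14 in the time course, and for the lower genes it was -1.84, -1.09 and -0.60. The first value of each group comes from the contrast that chose the genes, so nothing is read from its size. Of the naive and general pluripotency genes 22 of 34 were lower without dox and 22 in the time course. Nanog was an exception in the time course, with 6.45 and 14.5 FPKM, while it was at 32.9 and 2.13 FPKM in the re-seeded cells without dox. Lefty1 was at 9.56 and 49.4 FPKM in the time course, and at 96.2 and 1.32 FPKM without dox. Crabp2 was at 109 and 65.5 FPKM in the time course. The cholesterol synthesis list, with 2 of 21 higher and 0 lower with dox, had 12 lower in the time course and a median log2 ratio there of -1.05.

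Of the 27 lower genes of naive and general pluripotency, 16 were within 2-fold of 96 h –dox at 96 h +dox, 6 lay above and 5 below. Of all 1470 lower genes 870 were within 2-fold, 213 lay above and 360 below. The share within 2-fold was thus similar, and is not particular to the pluripotency genes among the lower genes. All of these genes were chosen partly by a low 96 h +dox value, so nothing is read from how many lay above or below. The same shares over all genes compared were not computed. Tet1 was at 9.51 and 2.58 FPKM without dox, against 47.6 and 2.37 FPKM with dox. Etv4 was at 10.2 and 1.21 FPKM without dox, against 42.3 and 1.20 FPKM with dox. Dppa5a was at 1081 and 51.5 FPKM without dox. Tdgf1 was at 130.1 and 3.72 FPKM and Fgf4 at 9.14 and 0.581 FPKM without dox. Pou5f1 was at 72.6 and 2.63 FPKM without dox, and its 96 h values were 9.95 FPKM with and 2.63 FPKM without dox. Nanog likewise stood above its –dox value at 96 h, with 8.63 against 2.13 FPKM. Without dox Klf2 was at 17.2 and 10.6 FPKM and the T-box gene Tbx3 at 4.33 and 4.99 FPKM, both less than 2-fold apart, while with dox Tbx3 was at 8.76 and 1.53 FPKM.

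Of the 1319 genes higher at 96 h with dox, 600 had a larger 96 h value with dox than without, 212 of them by over 2-fold, while 239 were over 2-fold lower with dox than without. The 1319 were chosen partly by a high 96 h +dox value, and the 2-fold shares over all genes compared were not computed. H19 was at 759 and 11602 FPKM without dox and Igf2 at 28.3 and 474 FPKM. Id3 was at 30.6 and 321 FPKM without dox, and Krt8 was at 527 and 1227 FPKM. The trophoblast gene Hand1, at 0.485 and 1.76 FPKM with dox, was at 1.86 and 38.2 FPKM without, and Tfap2c, similar at both timepoints with dox, was at 11.7 and 82.5 FPKM without. Among the genes with larger 96 h values with dox, Scel was at 2.09 and 10.8 FPKM without dox and Ccnd2 at 0.558 and 4.22 FPKM against 39.6 and 19.4 FPKM at 96 h with dox. Among the whole lists, the value of 96 h +dox was above that of 96 h –dox for 0 of 12 trophoblast genes, 0 of 8 primitive streak genes, 2 of 20 genes of the TGF-beta, BMP and Wnt list and 2 of 19 imprinted genes, and for 18 of 20 glycolysis, 17 of 21 cholesterol synthesis and 22 of 25 cell division genes. Over all genes compared it was above for 6503 of 12736.

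Some genes had a different order of the timepoints with dox than without. Crabp1, a retinoic acid carrier on chromosome 9 from 54764748 to 54773110, was at 16.5 and 7.79 FPKM with dox and at 3.61 and 45.8 FPKM without, a difference of log2 ratios of -4.75. The P-cadherin gene Cdh3 was at 18.6 and 4.91 FPKM with dox and at 6.59 and 21.9 FPKM without. Irx2 was at 3.05 and 2.87 FPKM with dox and at 1.79 and 29.1 FPKM without, and Aebp1, less than 2-fold apart with dox, was at 2.25 and 25.2 FPKM without. For all of these the value of 96 h –dox stood above that of 96 h +dox. In the other direction Pdzk1ip1, a membrane protein gene, was at 7.98 and 29.9 FPKM with dox and at 18.6 and 3.09 FPKM without, a difference of 4.50. Thbs1 (thrombospondin), a member of the contractile and YAP list, was at 26.1 and 79.9 FPKM with dox and at 85.7 and 39.4 FPKM without. Without replicate values none of these differences could be tested.

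**Figure D4:**
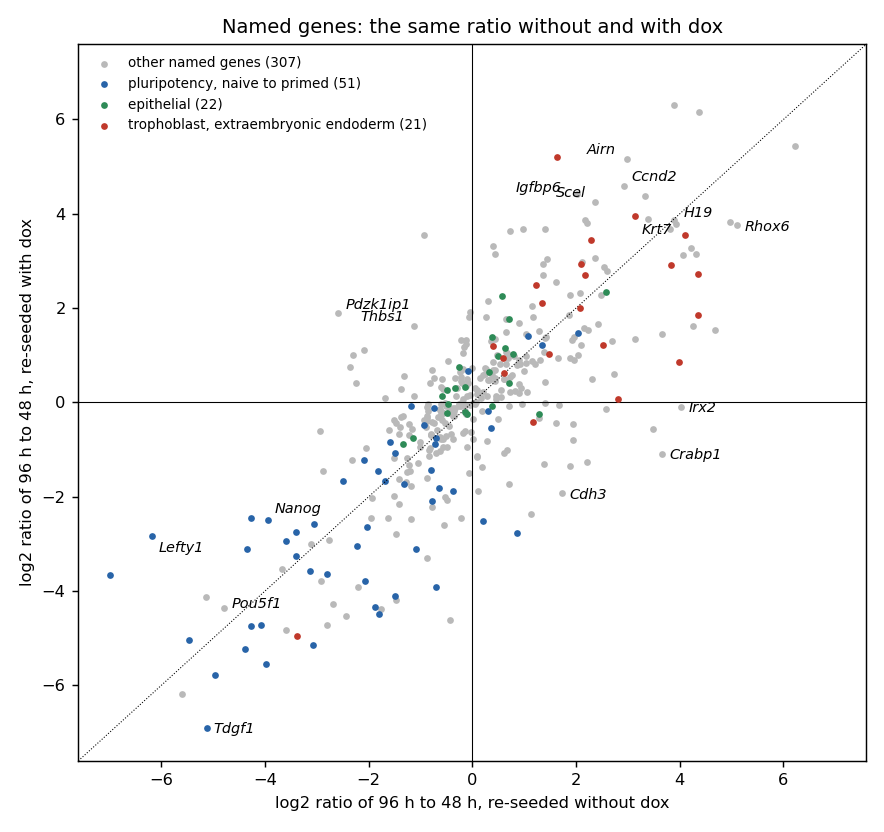
log2 ratio of 96 h to 48 h without dox (x axis) and with dox (y axis) for the named genes that reached 1 FPKM in each pair of conditions and are above 0 in all, 1 point per gene, with the dotted line of equal ratios. Pluripotency genes (blue) lie mostly at the lower left and trophoblast and extraembryonic endoderm genes (red) mostly at the upper right, while Crabp1 and Cdh3 lie at the lower right and Pdzk1ip1 and Thbs1 at the upper left.

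Undifferentiated cells that had the same dox treatment, 0 h +dox, did not enter the comparison and give a common reference. Over all genes compared 76.7% were within 2-fold of 0 h +dox at 48 h and 66.5% at 96 h, so 48 h +dox was the nearer one in general. Of the 1470 genes lower at 96 h, 661 (45.0%) were within 2-fold of 0 h +dox at 48 h but not at 96 h, and 210 (14.3%) were within 2-fold at 96 h but not at 48 h. Both were within 2-fold for 139 genes and neither for 460. Of the 1319 genes higher at 96 h, 528 (40.0%) were within 2-fold at 48 h only and 163 (12.4%) at 96 h only. With a limit of 1.5-fold the genes within it at neither timepoint were the most numerous, 786 lower and 679 higher, against 493 and 441 within it at 48 h only. With 0 h of the time course as the reference, 533 of the lower genes were within 2-fold at neither and 517 at 48 h only. Those cells were in 2i/LIF and not re-seeded. Their 9 fibroblast markers summed to 790.3 FPKM, against 10.2 FPKM in 0 h +dox, and the part of either in these counts was not tested. Lama1, with 23.0 FPKM in 0 h +dox, was within 2-fold at 96 h only. The same held for the FGF feedback inhibitor gene Spry4, which was at 11.5 FPKM in 0 h +dox, 31.5 FPKM after 48 h and 5.76 FPKM after 96 h. Mycn was within 2-fold at neither, with 56.4 and 17.0 FPKM after 48 and 96 h and 8.45 FPKM in 0 h +dox.

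**Figure D5:**
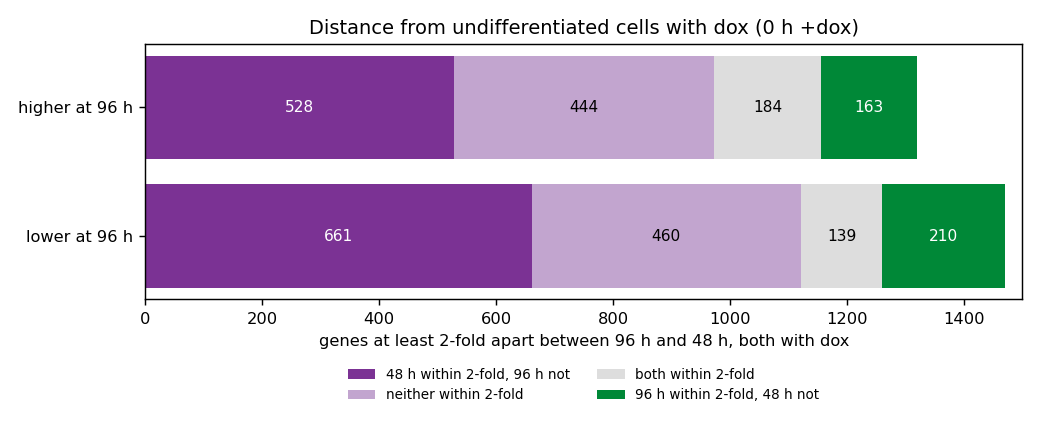
Number of genes at least 2-fold lower or higher in 96 h +dox than in 48 h +dox (x axis), divided by which of the conditions was within 2-fold of undifferentiated cells with dox (0 h +dox). Only 48 h +dox was within 2-fold for 661 lower and 528 higher genes, the most numerous group at this limit and reference but not with a limit of 1.5-fold.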

How the data were processed

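RNA-seq of polyadenylated RNA was analysed from the deposited FPKM table, which the authors made by mapping reads to mm10 with TopHat 2.0.14 and running Cuffquant and Cuffdiff of Cufflinks 2.2.1 on Gencode vM4 transcripts of at least 200 bp from 6 biotypes. Cuffdiff combined the 2 replicates of each of the 15 conditions into 1 value, and the normalization it applied between libraries is not given in the sources used here. The name of the table says RPKM, whereas the methods speak of FPKM. The table holds no counts, so the depth is unknown. For a rough relative estimate, a low percentile of the values above 0, scaled by length, in long genes with 1 transcript was taken as 1 step. A gene of 2 kb at 1 FPKM then stands at 30.3 steps in 48 h +dox and 38.2 in 96 h +dox. The table's columns of the authors' comparisons, their groups of dynamic genes and calls after dox, were not used.

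Values were used as deposited. Plain ratios were taken for genes whose higher value was at least 1 FPKM, and called at 2-fold. No pseudocount was used for log2 ratios, which do not exist for genes listed at 0. Named genes are the 4 OSKM genes, the members of 27 gene lists (510 genes, of which 508 are in the table and 390 were compared), the 12 genes with the largest ratio in each direction among those with at least 1 FPKM in both conditions and 10 FPKM in the higher one, and the 5 in each direction with the largest difference of log2 ratios with and without dox. The conditions and lists were chosen with earlier results of these data known, so that no count of a list is independent support. Some genes are in several lists. Of the gene names, 27 had been turned into dates and are not named here. A few further named genes are not reported here. Positions come from Gencode M21 (mm10), which lists 95.6% of the compared gene names, and promoter windows are those of RefSeq on GRCm38.p6. A comparison of promoter features between higher and lower genes was void, since windows were matched for only 71.2% of the higher and 72.5% of the lower genes, under the minimum of 80%. The calling code was tested on simulated data with known ratios, which checks the code and not the calls. Python 3.11.15, numpy 2.4.6, pandas 2.3.3 and matplotlib 3.10.9 were used. Alternatives were tried for the minimum, the fold, a pseudocount, the scaling and the reference condition.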

Additional observations from a re-analysis of the deposited data

Results flagged for a closer look

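The results below stand out because the difference between 96 and 48 h had opposite directions with and without dox. None of these differences was tested, since each condition has 1 value. In all, 21 genes were at least 2-fold higher at 96 h with dox and 2-fold lower without, and 53 were lower with dox and higher without. These are 1.59% of the higher and 3.61% of the lower genes. Over all genes compared 9.26% were lower and 9.44% higher without dox, so opposite directions were rarer here than these shares. Given here are the named genes with opposite directions and at least 10 FPKM in 1 or more of the 4 conditions. All of these had at least 1 FPKM in all 4 conditions. The log2 ratio with dox minus that without was -4.75 for Crabp1, -3.66 for Cdh3 and -3.47 for Gm20529. Gm20529, a processed transcript on chromosome 9, was at 27.5 and 11.5 FPKM with dox and at 4.63 and 21.4 FPKM without. The same difference was 4.50 for Pdzk1ip1, 3.31 for the noncoding RNA Gm26870, 3.21 for Synpo2l and 2.74 for Thbs1. Gm26870, whose repeated sequence makes its reads uncertain, was at 2.86 and 5.73 FPKM with dox and at 12.6 and 2.53 FPKM without. Synpo2l, a muscle-associated actin-binding protein gene, was at 2.44 and 5.30 FPKM with dox and at 13.7 and 3.23 FPKM without.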

How the results depend on the processing

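No paired analysis was possible because the table holds 1 combined value per condition. For the same reason leaving out a replicate was not run. The counts of genes apart (2789 in all, 1319 higher and 1470 lower) were within 1.5 times of these under a minimum of 0.5 FPKM, 0.1 FPKM added to all values, and all 3 scalings. With a minimum of 5 FPKM they were 1474, 780 and 694. With no minimum they were 6860, 2984 and 3876. With 1 FPKM required in both conditions they were 1606, 852 and 754. At 1.5-fold they were 5045, 2526 and 2519, and at 4-fold 1103, 430 and 673. With 1 FPKM added, 816 genes had the same direction without dox (1295 without the addition), 738 had it in the time course (1150), 66 of the higher genes were within 2-fold of 0 h +dox at 96 h only (163), and 21 had opposite directions with and without dox (74). Scaling to the same sum moved the median log2 ratio of all genes from 0.01 to 0.13 and the share of calls that were higher from 47.3% to 55.6%, and called Myc higher. Upper quartile scaling moved them to -0.09 and 40.8%. No called log2 ratio of a named gene changed sign under median-of-ratios scaling, under scaling to the same sum or with 1 FPKM added. This was fixed in advance and is no check. Adding 1 FPKM to both values cannot change a sign, and these scalings shifted ratios by far less than the 2-fold limit. Upper quartile scaling was not run for single genes. More genes were higher than lower under scaling to the same sum (1561 and 1249), at 1.5-fold, with a minimum of 5 FPKM and with 1 FPKM in both conditions, the reverse of the reported order. Of the 464 counts and ratios for lists and single genes, 100 moved with 1 FPKM added, 7 under scaling to the same sum and 1 under median-of-ratios scaling. The causes were not tested. Ratios with a value under 1 FPKM are the least precise.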

Other observations

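The Rhox cluster was looked at as a whole after the values of Rhox6 and Rhox9 were seen. Rhox5, the best known member in embryonic and reproductive tissue, was at 73.0 FPKM after 48 h and 86.7 FPKM after 96 h with dox, and at 604 FPKM in 0 h +dox. Rhox13 was at 5.02 and 0.922 FPKM. In 96 h –dox Rhox6 and Rhox9 reached 379 and 260.1 FPKM. Among listed genes not described above, the placental imprinted gene Phlda2 was at 64.8 and 59.1 FPKM with dox and at 40.5 and 241 FPKM without. The keratin gene Krt42, at 67.8 FPKM in 0 h +dox, was at 11.9 and 0.519 FPKM.

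Genes of chromosome 7 were lower at 96 h more often than those of other chromosomes. Of 953 genes compared there 154 were lower (16.2%), against 8.68% to 12.6% on the other autosomes and the X, and 78 were higher (8.18%). Chromosome 6 had the largest share of higher genes, 15.0% of 545, closely followed by chromosome 18 with 14.6% of 288. Over all genes compared 10.4% were higher and 11.5% lower. Of 435 genes on the X, 56 were higher (12.9%) and 55 lower (12.6%). Protein-coding genes made up 94.6% of the genes compared that Gencode M21 lists, 92.7% of the higher ones and 88.6% of the lower ones. These shares were chosen after their values were seen and carry no test.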
